A study of Mus musculus with 9 samples.

Results

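A set of 9 photoreceptor genes was followed across 9 gene-expression arrays of mouse central cornea: Gnat1, Sag, Pde6g, Pde6b, Rcvrn, Guca1a, Crx, Nrl and Rp1. Every probe set whose only gene symbol in the array annotation was 1 of these names was taken, which gave 12 of the 45037 probe sets that are not hybridisation controls; the 9 genes are among 18193 with a probe set of a single symbol. The genes had been selected on their high intensity on 1 array, that of KS replicate 3, so their level there is a description, and they are tested only on the other 8 arrays. The arrays came from adult male mice aged 4 months of 3 inbred strains, with 3 mice and 3 arrays each: C57Bl/6J (B6), C57BLKS/J (KS), which has a thin cornea, and SJL/J (SJL), which has a thick cornea. Total RNA was labelled from 2 pooled punches of the central cornea, each 2 mm wide, from 1 mouse. No treatment was applied and none of the labels names an allele. As background, SJL/J mice are homozygous for the retinal degeneration allele of Pde6b known as rd1 and lose their rods, so low rod transcripts on SJL arrays say little about whether retina is present there.

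Rods and cones are the light-sensing neurons of the retina and are not part of the cornea. In rods, the light-activated visual pigment switches on the G protein transducin, transducin releases the phosphodiesterase PDE6 from its inhibitory subunits, and the fall in cyclic GMP closes cation channels; arrestin and calcium-binding proteins shut the response off. The homeobox factor Crx, in rods and cones, and the leucine zipper factor Nrl, in rods, drive transcription of this machinery. Their messages are abundant in retina, so small amounts of retinal RNA in another ocular tissue can be seen on an array.

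The deposited intensities have a floor: the lowest value in the table was 3.39 and the median 7.48, and 54.6% of values were under 16. A level near the floor is an upper bound on the signal, not a measured amount. The upper quartile of intensity ran from 380 to 396 over the 9 arrays. Corneal markers were high on all of them: Krt12, the keratin of corneal epithelium, was between 26007 and 29278, and Kera, keratocan of the stroma, between 11129 and 13183. On KS replicate 3 these 2 genes measured 27083 and 11129, which is 0.02 above and 0.11 below the mean of KS replicates 1 and 2 on the log2(intensity + 10) scale. That scale, used for every log2 value here, understates differences of genes near the floor. The 3'/5' log2 ratio of the Gapdh probe sets, a sign of RNA quality, was 0.93 on KS replicate 3 and between 0.73 and 1.55 on the other arrays.

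The transcripts of the transduction cascade were near the floor on 8 arrays and high on KS replicate 3. Gnat1 encodes the alpha subunit of rod transducin. It measured 5.20, 9.39 and 4.72 on the B6 arrays, 5.06, 4.92 and 2108 on the KS arrays, and 4.79, 5.16 and 4.83 on the SJL arrays. KS replicate 3 was the only array of the 9 far above the floor, and B6 replicate 2, at 9.39, was next in order. Pde6g, the inhibitory gamma subunit of PDE6, has 2 probe sets; they measured 719.6 and 529.8 on KS replicate 3, against 4.44 to 4.56 and 4.60 to 4.77 on the other 8. Pde6b, a catalytic subunit of the same enzyme, measured 254 on KS replicate 3 and 4.76 to 4.92 on the others, with B6, KS and SJL overlapping. The other 2 KS arrays, at 4.84 and 4.80, were thus no higher than B6 or SJL.

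Sag encodes rod arrestin, which binds the activated visual pigment and stops its signalling. It measured 7.92, 10.6 and 12.0 on the B6 arrays, 9.99, 10.6 and 1326 on the KS arrays, and 5.65, 6.49 and 6.51 on the SJL arrays. Apart from KS replicate 3, the 5 B6 and KS values lay above all 3 SJL values, though all of them were under 16. Rcvrn, recoverin, a calcium sensor that acts on the kinase of the visual pigment, measured 456 on KS replicate 3 and 4.43 to 4.55 elsewhere. Guca1a encodes a guanylate cyclase activating protein, which restores cyclic GMP when calcium falls. It was the only member well above the floor on every array: 429, 425 and 424 in B6, 424, 440.2 and 1093 in KS, and 393, 427 and 386 in SJL. Here KS replicate 3 was 1.29 log2 units above the next array, KS replicate 2, and the other 8 arrays lay in a narrow band that did not separate the strains.

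The transcription factors and the axonemal protein each had 1 probe set that was high on KS replicate 3 alone. Nrl measured 261 on KS replicate 3 and 4.21 to 4.28 on the others. Crx had 1 probe set at 114 on KS replicate 3 against 4.84 to 5.11 elsewhere, and a second at 5.03 against 4.44 to 4.53. Rp1, a microtubule-associated protein of the outer segment axoneme, likewise had 1 probe set at 188 against 4.96 to 5.33, and a second at 4.49 on KS replicate 3, below all 8 of the other values (4.51 to 4.60). The 2 probe sets of Crx, and the 2 of Rp1, therefore disagreed. Which transcript each probe set reads was not determined here.

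**Figure D1:**
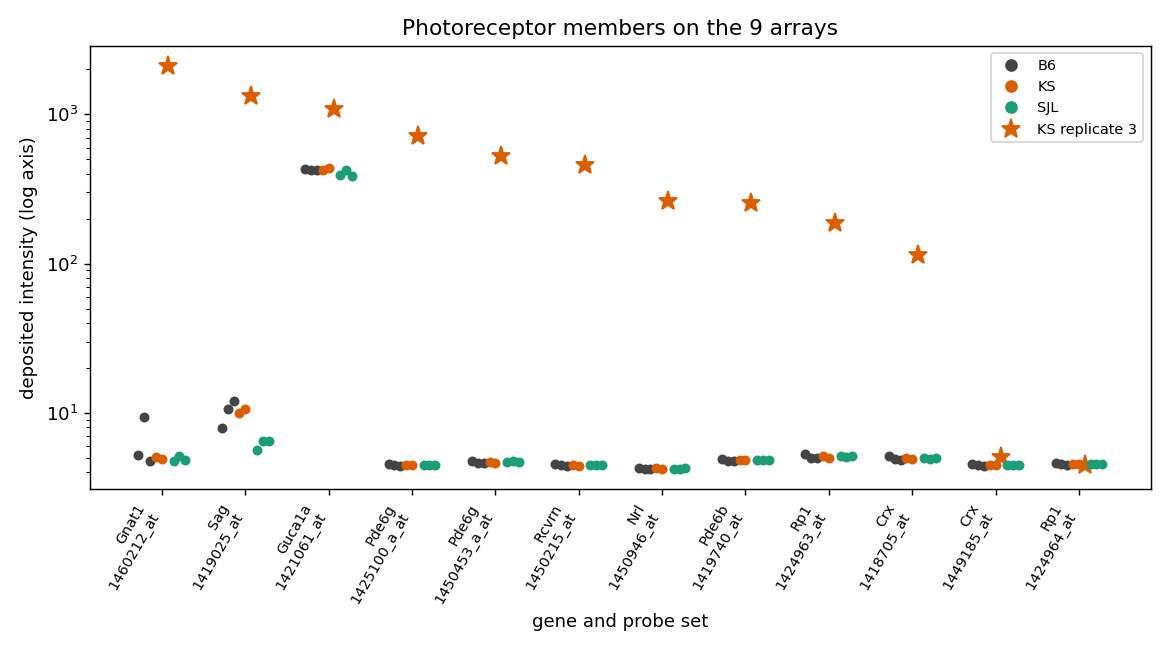
Deposited intensity (log axis) of the 12 probe sets of the 9 photoreceptor genes, 1 point per array, coloured by strain, with KS replicate 3 as a star. KS replicate 3 stands apart for 10 probe sets and lies with the other arrays for the second probe sets of Crx and Rp1; Guca1a alone is well above the floor on all arrays.

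To put a size on the separation, a probe set was called raised on an array when its log2 value was at least 1 above the highest of the other 8, which is a 2-fold gap. By this rule 90 of 45037 probe sets, 0.2%, were raised on KS replicate 3. They include 10 of the 12 member probe sets, at least 1 for each of the 9 genes; since the members were selected on this array, nothing is read from that count. At a 4-fold gap 43 probe sets were raised, 9 of them members, and Guca1a was not among them. The raised members lay 1.29 (Guca1a) to 6.77 (Gnat1) log2 units above the next array. No member lay just outside the rule: the second Crx probe set had a gap of 0.05 and the second Rp1 probe set one of -0.01, which is almost none. Over all probe sets, the gaps nearest the line were 1.01 inside and 0.99 outside. By the brightest probe set of each gene, the median excess of the 9 genes over the mean of KS replicates 1 and 2 was 4.25 log2 units, against -0.01 for the 18193 genes on the array. The intensities of those 9 probe sets summed to 6521 on KS replicate 3 and to 425 to 484 on the other arrays, most of the latter being Guca1a. Without Guca1a the sums were 5427 and 38.5 to 47.8, the highest of these on B6 replicate 2.

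No other array had a raised set of this size. Raised probe sets numbered 15, 3 and 18 on B6 replicates 1 to 3, 0 and 5 on KS replicates 1 and 2, and 8, 21 and 4 on SJL replicates 1 to 3. Lowered probe sets, 2-fold under the lowest of the other 8, showed another pattern: 1 on KS replicate 3, but 85 on B6 replicate 3, 45 on SJL replicate 1 and 94 on SJL replicate 2. KS replicate 3 thus stood apart upwards and not downwards. The raised probe sets of KS replicate 3 carried a summed excess over the means of KS replicates 1 and 2 of 26653 intensity units, which is 0.0830% of that array's total of 32118000. The same sum for the raised sets of the other arrays, each against its own strain mates, was 0% to 0.0101% of the total. These shares are of array signal, with several probe sets per gene. With no retina array in the series, they are not shares of RNA or of cells, and in a bulk sample more cells of a type and more RNA per cell cannot be told apart.

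**Figure D2:**
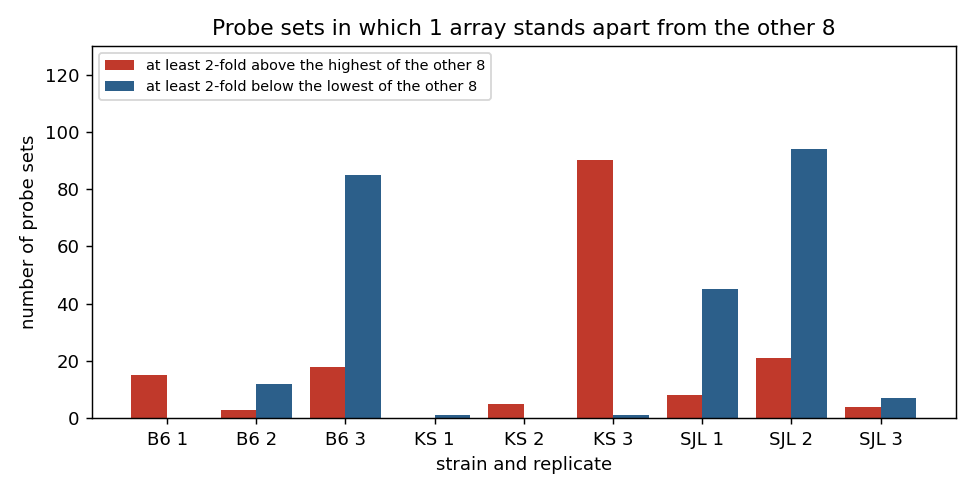
Number of probe sets that are at least 2-fold above the highest (red) or below the lowest (blue) of the other 8 arrays, for each strain and replicate, on the log2(intensity + 10) scale. KS replicate 3 has 90 raised and 1 lowered; B6 replicate 3 and SJL replicate 2 have 85 and 94 lowered.

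The 90 raised probe sets name 69 genes, and 11 of the probe sets have no single gene symbol. Of the 69 genes, 28 are in 1 of 5 photoreceptor lists and 35 in any list of retinal or neuronal markers, members included. By brightest probe set, 68 of 18193 genes, 0.374%, were raised. Some genes named here and below were raised by only part of their probe sets. The part was 1 of 2 for Opn1sw, Rbp3, Neurod1, Guca1b, Cabp4, Atp1b2 and Ptgds. It was 1 of 3 for Aqp4, 1 of 4 for Ttr, and 3 of 4 for Gngt1 and Tlcd3b. In the list of rod transduction and outer segment genes 12 of 20 were raised, of which 5 were members. The others were Gngt1, the gamma subunit of rod transducin (2199 on KS replicate 3, 5.27 to 5.83 on the others), Rom1, Abca4, Slc24a1, Rp1l1, Rgs9bp and Cnga1. Of the 20, 6 were under 16 on all 9 arrays, among them Pde6a, Grk1 and Prph2, so the probe sets of these rod genes stayed under that level on KS replicate 3 too. Of 12 cone genes 1 was raised, the short-wave opsin Opn1sw (75.0 on KS replicate 3, 4.23 to 4.29 on the others); 9 of the 12 were under 16 on all arrays.

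Beyond the transduction cascade, 4 of 7 calcium sensors and cyclases were raised: the members Rcvrn and Guca1a, and also Guca1b and Cabp4. Of 12 photoreceptor transcription factors 4 were raised, namely the members Nrl and Crx, and also Neurod1 (85.6) and Otx2 (24.1). The members were selected on this array, so their part of each count was fixed in advance. Of 19 maintenance, synapse and visual cycle genes 7 were raised. They were led by Pdc, phosducin, which binds transducin beta-gamma (1855 on KS replicate 3, 5.84 to 7.25 on the others), and Rbp3, the retinoid carrier between photoreceptors and pigment epithelium (434 against 4.36 to 4.45). Among neuronal genes, 4 of 16 were raised: Snap25, a synaptic vesicle fusion protein (938 against 4.93 to 5.22), Atp1b2, Scg2 and Sv2b. The host transcripts of the neuronal microRNA miR-124, Mir124-2hg and Mir124a-1hg, measured 723 and 597 on KS replicate 3 and at most 5.50 and 4.42 elsewhere.

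Markers of bipolar, amacrine, horizontal and ganglion cells and of pigment epithelium were mostly near the floor. None of 13 bipolar, 16 amacrine and horizontal, 14 ganglion cell and 9 pigment epithelium genes was raised by its brightest probe set; the largest gaps in these 4 lists were 0.70 (Isl1), 0.12 (Gad1), 0.04 and 0.40 (Ttr, by a probe set other than the raised one). Of these genes 10, 12, 12 and 7 were under 16 on all 9 arrays. Of 15 Mueller glia genes 2 were raised, Rlbp1 (33.4) and Aqp4 (21.6), and 5 were under 16 on all arrays. The Mueller glia list summed to 35134 on KS replicate 3 and to 31708 to 37690 on the others. The rod genes summed to 24060 on KS replicate 3 and to 10520 to 15726 on the other 8. Most of each rod sum was Gnb1, at 16109 on KS replicate 3 and 9252 to 15333 on the other 8. The rod list also holds members, which were selected on KS replicate 3. Sums on KS replicate 3 were 1364 for bipolar genes (1108 to 1349 on the other 8), 225 for ganglion cell genes (111 to 324) and 473 for pigment epithelium genes (98.8 to 352). None of 9 pigment cell, 15 lens, 10 muscle and 6 blood and vessel genes was raised. None of 12 corneal epithelium genes was raised; of 10 stroma genes Ptgds was, and of 6 endothelium genes Car2 (69.0 against 4.27 to 4.33). The corneal epithelium genes summed to 171280 on KS replicate 3 and to 158800 to 177040 on the others. No gene of the 5 photoreceptor lists was raised, by its brightest probe set, on any of the other 8 arrays. For genes raised on KS replicate 3, members included, the rule fixed that in advance, since a probe set can be raised on only 1 array. Genes of the other lists were also rarely raised on those 8 arrays: 1 pigment cell gene on B6 replicate 3 and 1 lens gene on SJL replicate 2. Beyond these marker levels, the presence of retinal tissue in a sample was not tested.

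**Figure D3:**
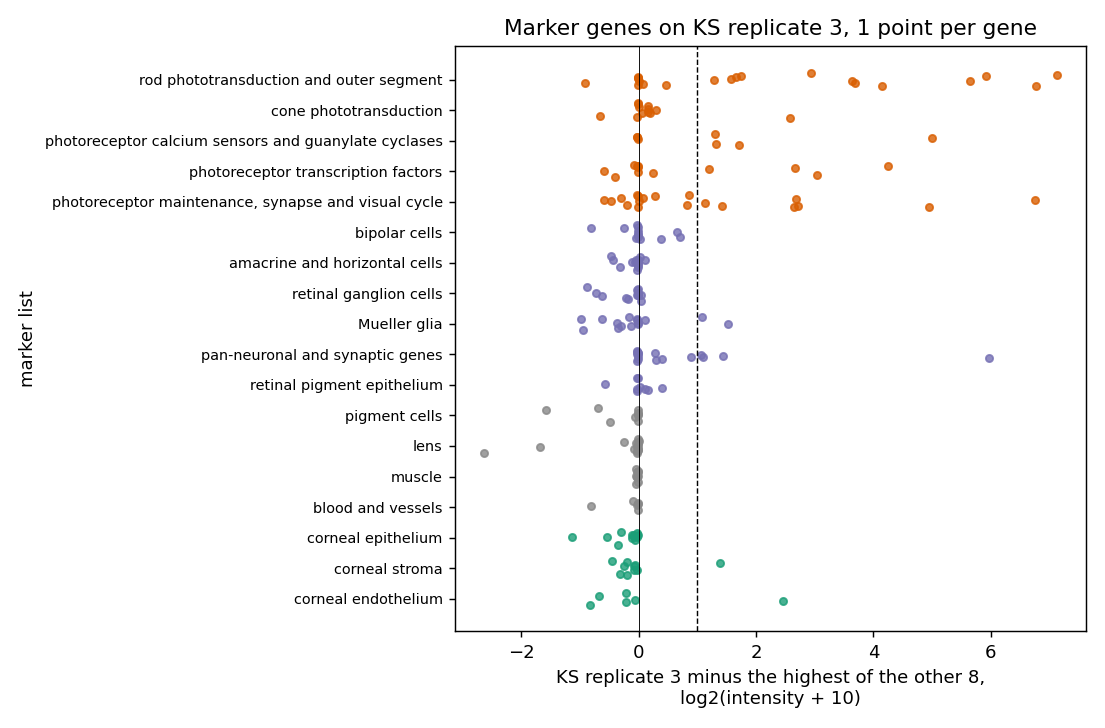
Gap between KS replicate 3 and the highest of the other 8 arrays, in log2(intensity + 10), for each gene of 18 marker lists (orange, photoreceptor; purple, other retina and neurons; grey, other tissues; green, cornea). The dashed line marks the 2-fold rule. Of 20 rod genes 12 lie to its right, among them members, which were selected on this array. No bipolar, amacrine, ganglion cell or pigment epithelium gene lies to its right.

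Low values on B6 replicate 2 touched some of the same genes. Beside Gnat1, that array had the highest value of the 8 for 1 Gngt1 probe set (7.48 against 5.20 to 5.68), for Pdc (7.25 against 5.84 to 6.09) and for a raised probe set of Ttr, transthyretin (13.8 against 5.15 to 7.52), chosen after their values were seen. Other probe sets of the same genes had another order: of the 8 arrays, B6 replicate 1 and not B6 replicate 2 was highest for the brightest Gngt1 probe set (5.83 and 5.32), for a further one (5.39 and 5.09), and for the brightest Ttr probe set (196 and 167). All but the last are under 16, and whether they are signal was not tested.

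The raised genes were spread over 17 chromosomes, with at most 9 on 1 of them. The members lie on 7, in the RefSeq annotation of GRCm38.p6: Gnat1 at chr9:107674437-107679634, Pde6g at chr11:120447607-120453500, Rcvrn at chr11:67695326-67703355, Pde6b at chr5:108388373-108431743, Sag at chr1:87798143-87845158, Rp1 at chr1:4115673-4409266, Guca1a at chr17:47394557-47413514, Crx at chr7:15865947-15879955 and Nrl at chr14:55518978-55524981.

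Promoter sequences are shown because Crx and Nrl are themselves members and known regulators of photoreceptor genes; neither motif was common to all members with a sequence. RefSeq promoters, the 250 bases before a start site in GRCm38.p6, were at hand for 5 of the 9 genes. The core letters of the Crx site, TAATCC, were searched on both strands; they occur in 6.25% of all 32851 promoters. The letters TGCTGA, part of the known Nrl site, occur in 16.1%. The 4 promoters with a match are printed 5' to 3' on the gene's strand, with matches to either motif on either strand in capitals.
Sag chr1:87803430-87803679 (+): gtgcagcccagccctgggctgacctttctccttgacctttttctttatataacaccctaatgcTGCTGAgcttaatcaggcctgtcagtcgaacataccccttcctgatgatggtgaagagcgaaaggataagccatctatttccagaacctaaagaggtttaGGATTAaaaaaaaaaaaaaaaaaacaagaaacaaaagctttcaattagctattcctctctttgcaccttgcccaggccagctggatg
Pde6b chr5:108388123-108388372 (+): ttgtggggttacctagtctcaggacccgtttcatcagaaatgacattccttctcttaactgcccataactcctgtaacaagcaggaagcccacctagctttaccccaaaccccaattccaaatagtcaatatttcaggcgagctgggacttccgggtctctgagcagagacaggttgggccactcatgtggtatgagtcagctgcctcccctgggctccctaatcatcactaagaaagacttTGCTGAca
Crx chr7:15879956-15880205 (-): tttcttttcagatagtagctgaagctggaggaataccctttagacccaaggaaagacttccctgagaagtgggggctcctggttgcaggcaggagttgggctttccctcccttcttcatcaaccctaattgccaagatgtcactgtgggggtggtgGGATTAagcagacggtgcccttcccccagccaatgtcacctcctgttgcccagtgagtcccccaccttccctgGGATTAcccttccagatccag
Guca1a chr17:47400607-47400856 (-): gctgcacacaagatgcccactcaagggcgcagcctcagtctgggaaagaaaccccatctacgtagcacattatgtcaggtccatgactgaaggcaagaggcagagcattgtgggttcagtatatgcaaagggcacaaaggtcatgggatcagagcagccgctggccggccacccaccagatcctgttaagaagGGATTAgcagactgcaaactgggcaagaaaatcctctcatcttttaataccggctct
Sag had TGCTGA starting 187 bases before its start and the Crx letters, as GGATTA, at 87 bases before. Pde6b had TGCTGA at 8 bases before, and no Crx letters. Crx itself had GGATTA at 94 and at 21 bases before its start, and Guca1a had it at 57. The windows of Sag, Guca1a and Nrl lie inside the gene's outer bounds, so these genes also have a start further out. The Nrl promoter at hand had neither motif. Among raised genes that are not members, 44 had promoters in the table: 12 of their 74 promoters, 16.2%, held the Crx letters and 23, 31.1%, held the Nrl letters. Several promoters can belong to 1 gene. A match is only a match of letters.

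In the comparison of the strains, the members' estimates depended on whether KS replicate 3 was in the fit. With all 9 arrays, limma on the probe sets at or above the median mean level tested 22519, including 10 of the 12 member probe sets. Of all tested, 15.5% were called for SJL against KS, 5.71% for KS against B6 and 16.0% for SJL against B6, at an adjusted p under 0.05. This fit includes the array the members were selected on, so their values in it are a description and no test of them is read. The members' median log2 difference was -1.54 for SJL minus KS and 1.54 for KS minus B6. For SJL minus B6, which does not use the KS mean, the median was 0.00. The differences of -1.54 and 1.54 share the KS arrays. Gnat1 had the largest size, -2.39 for SJL minus KS.

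Without KS replicate 3, only Sag and Guca1a passed the filter, so the test covers 2 of 12 member probe sets; the other 8 of the 10 had passed through KS replicate 3 alone. Limma on the 8 arrays called 10.8%, 3.65% and 13.3% of all probe sets in the same 3 contrasts and no member. Sag was lower in SJL than in KS by a log2 difference of -0.32 (SE 0.11, limma adjusted p = 0.134, unadjusted p = 0.0238) and than in B6 by -0.31 (SE 0.10, limma adjusted p = 0.0956, unadjusted p = 0.0174). With a pseudocount of 1 in place of 10, the difference from B6 was -0.62 and was called (limma adjusted p = 0.0387), and that from KS was -0.65 (limma adjusted p = 0.0556). All 8 of the Sag values are under 16, so the call rests on levels near the floor. KS and B6 differed by 0.01 (SE 0.11, limma adjusted p = 0.982). Guca1a differed by -0.10 for SJL minus KS (SE 0.09, limma adjusted p = 0.582) and by 0.02 for KS minus B6 (SE 0.09, limma adjusted p = 0.960). Tested by limma with no filter on the 8 arrays, all 12 member probe sets gave 0 calls. Each contrast against SJL had 1 unadjusted p under 0.05, and KS against B6 had none. The share over all probe sets in that unfiltered fit is not given here, so nothing is read from these counts.

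The probe sets raised on KS replicate 3 differ in how much of their signal was there on the other arrays. For 78 of the 90 probe sets the mean of KS replicates 1 and 2 was under 16, for 7 it was from 16 to 100, and for 5 it was at least 100. The last group had intensities well above the floor on the other KS arrays; whether these come from corneal transcripts or from probe background was not tested. It holds Guca1a, Plekhb1 (mean of KS replicates 1 and 2 164, KS replicate 3 594), Ptgds, prostaglandin D2 synthase (282 and 835), Unc119, a photoreceptor trafficking protein (109 and 327), and Tlcd3b (280.4 and 628). Guca1b, at 98.4 and 451, was just under that line. Of the 22519 probe sets tested with 9 arrays, including KS replicate 3 raised the KS mean by 0.5 log2 or more for 61 and lowered it as much for 9. That filter admitted some of these probe sets only through their level on KS replicate 3. The 61 is thus a description and not a like-for-like comparison with the other KS arrays. Including KS replicate 1 raised the KS mean as much for 6 and lowered it for 34, and including KS replicate 2 for 5 and 28. Some genes high on KS replicate 3 among the KS arrays are outside the raised set. For these, another array was above KS replicate 3 or less than 2-fold below it. Cdhr1, an outer segment cadherin, and Reep6 were 1.18 and 1.14 log2 above the mean of KS replicates 1 and 2. An excess of that size moves the KS mean by less than 0.5. The brightest Ttr probe set was 2.18 above, which moves it by more. These 3 were chosen after their values were seen.

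Of the 90 raised probe sets, 52 were tested with 9 arrays and 14 without KS replicate 3; the other 38 passed the filter only through it. The set was selected on KS replicate 3, so a higher KS mean and a wider spread with that array follow from the rule, and the 9-array values below are a description. For SJL against KS, 3 of the 52 were called with 9 arrays, where 15.5% of all probe sets tested were called. With 8 arrays 4 of the 14 were called, where 10.8% of all were. These calls were all lower in SJL, and no call was lost. Without KS replicate 1, in place of KS replicate 3, 7 were called, beside 2617 calls over all probe sets. For KS against B6 1 was called in both fits, where 5.71% and then 3.65% of all probe sets tested were called. It was a probe set without a single gene symbol, higher in KS (2.38, limma adjusted p = 0.0251, then 1.70, limma adjusted p = 0.000907). Its call ended when KS replicate 2 or any 1 of the B6 arrays was left out. Without KS replicate 1 there were 2 calls, beside 998 over all probe sets.

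Plekhb1, a pleckstrin homology domain protein known from photoreceptors, fell from KS to SJL by 1.92 log2 with 9 arrays (limma adjusted p = 0.0197) and by 1.32 without KS replicate 3 (limma adjusted p = 0.00387). Its SJL arrays measured 47.5, 75.1 and 58.3, under all B6 (117 to 145) and KS arrays. Tlcd3b, a ceramide synthase, fell by 1.66 (its brightest probe set) and then by 1.28 (limma adjusted p = 0.00530 and 0.00137). Guca1b, a second guanylate cyclase activator, measured 102, 110.3 and 132 in B6, 98.0, 98.8 and 451 in KS, and 56.5, 42.8 and 37.5 in SJL. These values are from its raised probe set, 1 of 2. With 9 arrays its difference of -1.68 from KS was not called (limma adjusted p = 0.0573); without KS replicate 3 it was smaller, at -0.98, and called (limma adjusted p = 0.0103). In SJL against B6, KS enters only through the shared estimate of spread, so the differences are the same in both fits by construction. They were -0.99, -0.95 and -1.17 for Plekhb1, Tlcd3b and Guca1b. The limma adjusted p was 0.175, 0.0572 and 0.160 with 9 arrays and 0.00662, 0.00263 and 0.00219 with 8. These probe sets were selected on KS replicate 3, so a smaller spread without that array follows from the rule.

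Other raised genes were not called in either fit, and their estimates moved. For SJL minus KS, Rom1 went from -1.28 to -0.06 without KS replicate 3, Unc119 from -0.63 to -0.13, Ptgds from -1.21 to -0.70 and Ank2 from -2.16 to -1.27, while Ptp4a3 changed sign, from -0.26 to 0.30. Part of the calls over all probe sets changed with any 1 KS array left out, which also leaves fewer KS arrays in the fit. Without KS replicate 3, KS against B6 had 823 calls in place of 1286, and without KS replicate 2 it had 745. The cause of these changes was not tested.

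**Figure D4:**
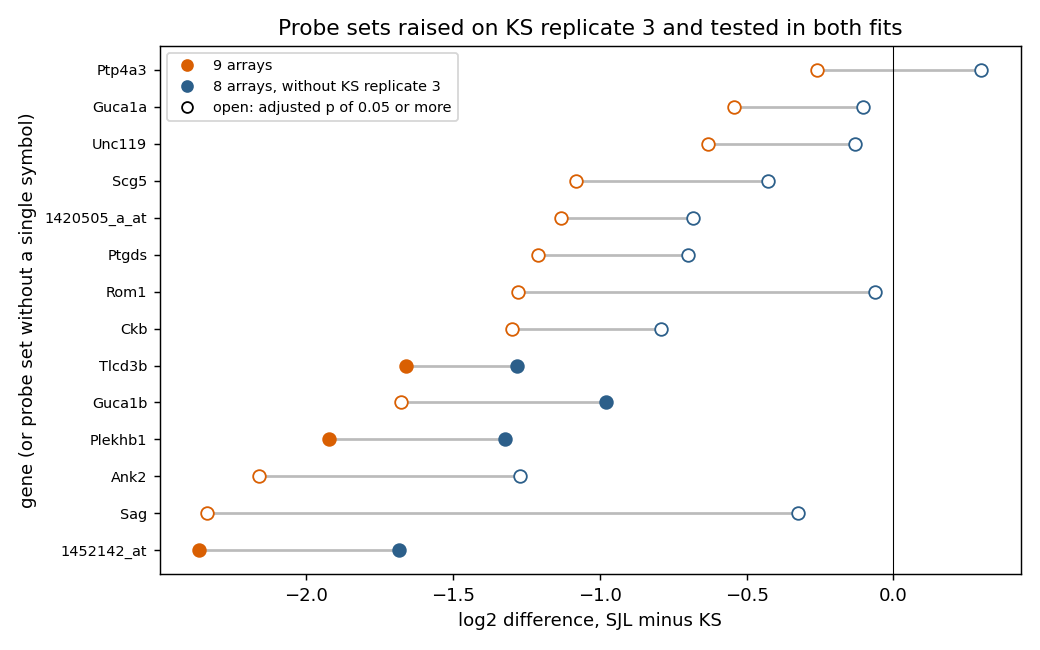
Log2 difference, SJL minus KS, of the 14 raised probe sets tested both with all 9 arrays (orange) and without KS replicate 3 (blue); filled points have a limma adjusted p under 0.05. With KS replicate 3 all 14 lie further to the left, as the rule that selected them fixes; Sag moves from -2.34 to -0.32, and Guca1b is called only without it.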

How the data were processed

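Intensities were taken as deposited for the series, a linear intensity per probe set and array for 45101 probe sets, of which 64 are controls. The authors' summary method and scaling are not given in the sources used here, so their effect on the intensities and the floor was not assessed. Apart from that, the number of arrays, 3 per strain, limits the precision. No further normalization was applied. Genes were named from the platform annotation: 34945 probe sets had 1 symbol, 932 several and 9160 none. Values were analysed as log2(intensity + 10). Strains were compared with limma 3.58.1 in R 4.3.3 (1 mean per strain, moderated variances, two-sided, Benjamini-Hochberg over 22519 probe sets at or above the median mean level, called at an adjusted p under 0.05), on 9 arrays and on 8 without KS replicate 3. The fit was tested on simulated data made from these arrays' means for KS against B6. The raised rule, a 2-fold gap to the highest of the other 8 arrays, uses no filter and no test, since it concerns 1 array. Each gene was represented by its brightest probe set over the 9 arrays. The members and the 18 marker lists (241 genes, 220 on the array) were chosen with earlier results of these data known. Named besides the members were the 20 genes with the largest gap on KS replicate 3, the 10 with the largest negative gap, the 3 of each list with the largest gap, raised genes with a mean of at least 100 on KS replicates 1 and 2, raised probe sets whose call changed, and Krt12 and Kera; only those with a bearing on the members are printed, and other genes are named where they fill out a count. Labels call the arrays replicates of 1 mouse each, so p-values measure the spread between mice within a strain. Alternatives were the filter, the pseudocount, quantile normalization, median centring, array weights, a replicate block, fits of 2 strains, and each array left out. Leaving out single arrays for the raised set and its calls was added after the data had been seen. RefSeq sequences are of GRCm38.p6.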

Additional observations from a re-analysis of the deposited data

How the results depend on the processing

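All values at the floor are upper bounds, and 1 array carries the raised set, so it has no replicate. The members raised on KS replicate 3 kept their count within 1.5 times under 6 alternatives. Since they were selected on that array, nothing is read from this. The raised set held 43 probe sets at a 4-fold gap and 48 with a pseudocount of 50, all among the 90; against KS replicates 1 and 2 alone it held 123, with a pseudocount of 1 it held 120, and both include the 90; with 1 of the other 8 arrays left out it held 90 to 100. The median excess of the 9 genes, 4.25, was 5.65 with a pseudocount of 1, 2.52 with 50, 4.23 after quantile normalization and 4.21 after median centring. Member calls on 8 arrays rose from 0 to 1 with a pseudocount of 1 (Sag).

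For the contrasts of SJL with KS, of KS with B6 and of SJL with B6, in that order, calls fell to 2101, 742 and 2156 with the filter at the 70th percentile, and rose to 9450, 2232 and 7364 with array weights, whose estimation stopped before convergence; without a filter KS against B6 had 838. Leaving out 1 array gave 2337 to 3643, 745 to 1452 and 2523 to 3674. Among the raised set, calls of SJL against KS and of KS against B6 were 0 and 0 at a 4-fold gap, 7 and 3 against KS replicates 1 and 2 alone, 6 and 3 with a pseudocount of 1, and 1 and 0 with 50; leaving out 1 array gave 2 to 7 and 0 to 2. The cause of these moves was not tested, except that fewer probe sets are tested at the 70th percentile. Same-numbered arrays of different strains had correlations of deviations from -0.27 to 0.26, with 3 of 9 pairs over 0.1. Differently numbered arrays had correlations from -0.36 to 0.42. With 3 arrays per strain these values cannot settle whether the numbers pair the mice, and no label says that they do. With the replicate number as a block, calls were 3315, 1124 and 3509, and no count moved by over 1.5 times.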
